A study of Mus musculus with 9 samples.

Results

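Platelet-derived growth factors (PDGFs) and their receptors were followed in RNA-seq of whole mouse ovaries with and without estrogen receptor beta (ERβ). The genes were chosen by symbol, 1 row of the count table each: the ligand genes Pdgfa, Pdgfb, Pdgfc and Pdgfd and the receptor genes Pdgfra and Pdgfrb, 6 of the 46078 genes counted. The 5 WT and 4 ERβKO libraries were each made from ovary tissue of a single mouse of the C57BL/6J strain. ERβKO mice lacked exon 3 of the ERβ gene in every tissue, since the floxed allele had been deleted in the germline with a Rosa26-Cre deleter strain, and WT mice were offspring without Cre, with ERβ intact. Mice across all experiments were 4 to 20 weeks old, the age behind each library is not given, and the ovaries were not synchronised by estrous stage. The sample labels give all 9 ovaries as untreated, while a protocol text attached to the same samples describes a high-fat diet and an ERβ agonist. The question for these genes is whether loss of ERβ changed the transcripts of the PDGF system.

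PDGFs are secreted growth factors that act as dimers on tyrosine kinase receptors at the surface of neighbouring cells. PDGF-A and PDGF-B are cut to their active form inside the cell, whereas PDGF-C and PDGF-D are secreted with a CUB domain that must be cleaved off outside it. PDGF-A and PDGF-C act mainly on the alpha receptor, PDGF-D mainly on the beta receptor and PDGF-B on both. In the ovary the alpha receptor is known from theca and stromal cells and the beta receptor from pericytes and smooth muscle cells of vessel walls, which endothelial PDGF-B recruits.

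Because ERβ is a transcription factor, the sequence before the start of transcription is shown for 3 of these genes. RefSeq (GRCm38.p6) gave 250 bases before a start for 4 of the 6 genes, with Pdgfb and Pdgfrb not among them. The windows of Pdgfc, Pdgfd and Pdgfra lay outside the genes' own exons. They are written 5′ to 3′ on the plus strand, on which these 3 genes lie. The capitals in Pdgfd mark the letters TATAAA, the motif of a TATA box.
Pdgfc, chr3:81036166-81036415: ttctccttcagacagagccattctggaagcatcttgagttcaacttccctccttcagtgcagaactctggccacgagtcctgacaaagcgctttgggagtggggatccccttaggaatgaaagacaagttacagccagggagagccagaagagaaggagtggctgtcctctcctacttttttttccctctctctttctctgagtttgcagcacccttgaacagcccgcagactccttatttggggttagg
Pdgfd, chr9:6168236-6168485: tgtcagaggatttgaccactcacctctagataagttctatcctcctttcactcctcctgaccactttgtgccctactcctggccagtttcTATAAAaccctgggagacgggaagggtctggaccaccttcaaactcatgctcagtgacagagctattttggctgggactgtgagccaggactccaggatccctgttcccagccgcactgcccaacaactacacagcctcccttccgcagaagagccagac
Pdgfra, chr5:75152001-75152250: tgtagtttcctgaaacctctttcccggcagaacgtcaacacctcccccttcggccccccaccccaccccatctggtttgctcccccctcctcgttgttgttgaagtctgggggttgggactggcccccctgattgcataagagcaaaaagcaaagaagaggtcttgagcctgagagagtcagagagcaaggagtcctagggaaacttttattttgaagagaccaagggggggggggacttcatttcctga
The letters TATAAA in Pdgfd began 160 bases before the RefSeq start, and 12.4% of the 32851 windows of this length in the genome held these letters on either strand. Whether they act as a TATA box was not tested. The gene starts deposited with the FPKM values lie further downstream than the RefSeq starts for Pdgfd (6168612) and Pdgfra (75152292). The GC content was 50.8% for Pdgfc, 53.6% for Pdgfd and 54.4% for Pdgfra, against a median of 52.4% over all windows. The motifs AGGTCA, the core of an estrogen response element, the full palindromic element with its spacer, CAAGGTCA, the motif of NR5A receptors, which contains the core, and GGGCGG, a GC box, were searched on both strands. None of these letters stood in the 3 windows, and they stood in 14.0%, 0.0213%, 1.33% and 32.7% of all windows. No match says only that these letters are absent from these windows. The study placed a minority of its ERβ binding sites in promoters. It listed Pdgfrb as lower without ERβ, reported an ERβ binding site in the first intron of Pdgfrb and denoted this gene a direct target.

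Library totals ran from 12353740 to 16519975 counted fragments in WT and from 13088728 to 18717510 in ERβKO ovaries. Each PDGF gene collected at least 181 counts in every library, so none was near the detection limit. In the principal component analysis the first component (35.9% of the variance) placed WT replicate 2 (9.43) between the remaining WT ovaries (-43.8 to -15.6) and those without ERβ (19.4 to 35.3). Adipocyte markers stood highest in ERβKO replicate 1, with a summed level of 1056 FPKM against 149 to 453 in the other ovaries. The deleted gene, Esr2, was counted over its whole length and measured 12.4 to 23.9 FPKM in WT and 10.5 to 23.7 FPKM in ERβKO ovaries, so its count does not check the labels. FPKM values, which are scaled for the length of the gene and the depth of the library, are the authors' values and allow levels of different genes to be set side by side, as far as the measure of length allows.

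All 6 genes were expressed in every ovary. Pdgfra had the highest FPKM, with a mean of 25.7 FPKM over the 9 ovaries (range 17.8 to 35.8), at percentile 86.4 of the genes tested. Pdgfd followed with 13.5 FPKM (9.82 to 15.7), then Pdgfrb with 11.5 FPKM (7.90 to 17.9), Pdgfc with 7.95 FPKM (6.14 to 9.07), Pdgfa with 6.77 FPKM (5.15 to 8.72) and Pdgfb with 4.04 FPKM (3.06 to 5.62). Pdgfra exceeded Pdgfd, and Pdgfa exceeded Pdgfb, in 9 of 9 ovaries by FPKM. The middle of the order was less separate, since Pdgfd exceeded Pdgfrb in 8 ovaries, Pdgfrb exceeded Pdgfc in 8 and Pdgfc exceeded Pdgfa in 7. Counts scaled to library size and to kilobases of merged exons gave the same order, with a mean of 21.6 for Pdgfra, 16.5 for Pdgfd, 16.1 for Pdgfrb and 4.19 for Pdgfb, and Pdgfra exceeded Pdgfd in 8 of 9 ovaries. By the deposited mean coverage per base the top of the order turned, with Pdgfd above Pdgfra in 9 of 9 ovaries and Pdgfrb above Pdgfra in 5 (4 WT and 1 ERβKO). Pdgfb lay above Pdgfa in 4 of 9 ovaries by coverage and in 2 by counts per kilobase. Pdgfd exceeded each of the other ligands in 9 of 9 ovaries by all 3 measures, whereas the place of Pdgfra depended on the measure.

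**Figure D1:**
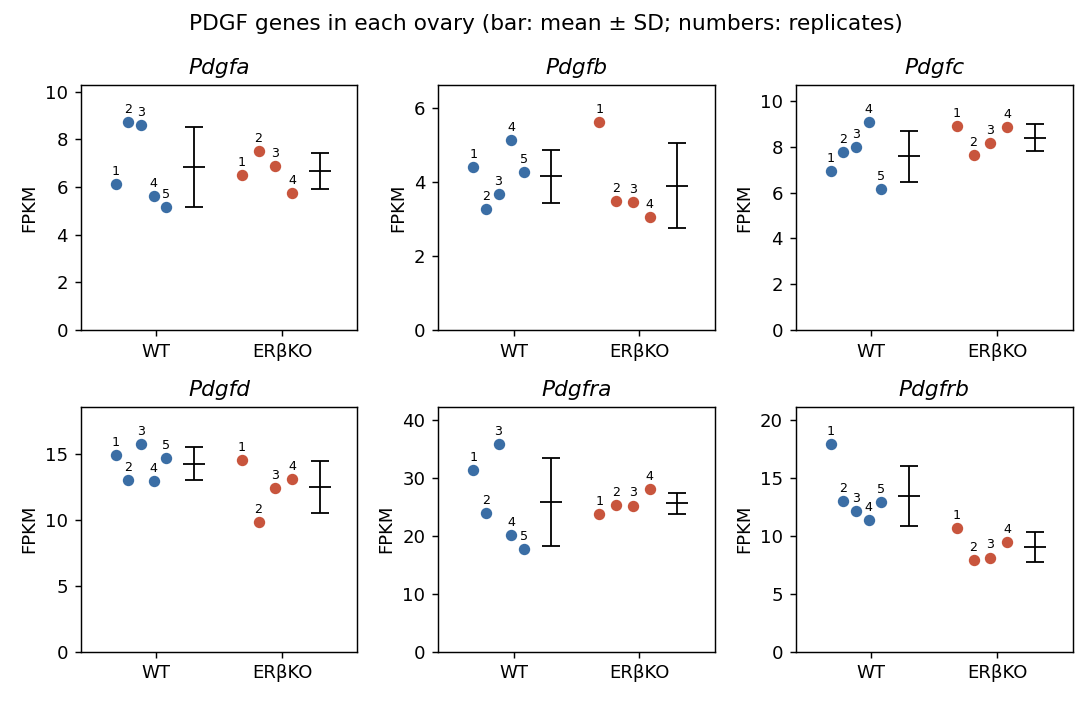
FPKM (y axis, from 0) of each PDGF gene in the 5 WT (blue) and 4 ERβKO (red) ovaries, with replicate numbers beside the points and the mean ± SD of each genotype at the right. The genotypes overlap for 5 genes, while the 4 ERβKO values of Pdgfrb, 7.90 to 10.7, lie below the 5 WT values, 11.3 to 17.9.

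None of the 6 genes met the study's criteria for a differentially expressed gene (DEG) in edgeR's quasi-likelihood test, which ask for a p below 0.05 after Benjamini-Hochberg adjustment, a log2 fold change beyond 0.4 in either direction, and more than 1 FPKM on average in WT or ERβKO ovaries. Over all 16722 genes tested, 1.66% met them. At an unadjusted p under 0.05 stood 1 of the 6, Pdgfrb, against 19.6% of all genes. In DESeq2, the study's own tool, 1 of the 6, again Pdgfrb, was a DEG, against 2.91% of all genes. Log2 fold changes, ERβKO over WT, were below 0 for 5 of the 6, with a median of -0.08 beside -0.00089 for all genes.

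Pdgfa, the ligand of the alpha receptor that many epithelia make, is on chromosome 5 (138976014 to 138997370, minus strand of GRCm38). It measured 6.12, 8.72, 8.61, 5.64 and 5.15 FPKM in WT ovaries (replicates 1 to 5) and 6.52, 7.52, 6.90 and 5.76 FPKM in ERβKO ovaries (replicates 1 to 4). WT replicates 2 and 3 were the highest of the 9 and WT replicates 4 and 5 the lowest, and the ERβKO ovaries lay between them. The log2 fold change was -0.05 (SE 0.14, 95% interval -0.36 to 0.25), with an adjusted p of 0.867 in edgeR. An antisense gene, 6330403L08Rik, overlaps 26.1% of its exons, and the strand setting of the counting is unknown here. The reads of this pair may therefore not be told apart.

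Pdgfb, the ligand that endothelial cells use to recruit pericytes, is on chromosome 15 (79995900 to 80014808, minus strand). Its WT values were 4.42, 3.27, 3.67, 5.14 and 4.27 FPKM, and its ERβKO values were 5.62, 3.49, 3.46 and 3.06 FPKM. ERβKO replicate 1 was the highest of all 9 ovaries, and ERβKO replicate 4 was the lowest. The log2 fold change was -0.11 (SE 0.19, 95% interval -0.52 to 0.31), with an adjusted p of 0.794. Without ERβKO replicate 1 the log2 fold change was -0.32, with an adjusted p of 0.336 in edgeR. Pdgfb had the largest relative spread of the 6 genes among ERβKO ovaries, with a coefficient of variation of 29.7% against 17.4% in WT.

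Pdgfc, a CUB-domain ligand of the alpha receptor, is on chromosome 3 (81036416 to 81214040, plus strand). It measured 6.95, 7.79, 7.97, 9.07 and 6.14 FPKM in WT and 8.90, 7.65, 8.17 and 8.88 FPKM in ERβKO ovaries. The highest value and the 2 lowest were all in WT ovaries. Pdgfc was the only PDGF gene with a log2 fold change above 0 in this fit, at 0.08 (SE 0.11, 95% interval -0.15 to 0.32), and its adjusted p was 0.702.

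Pdgfd, a CUB-domain ligand of the beta receptor, is on chromosome 9 (6168612 to 6378843, plus strand) and was the most abundant ligand transcript. It measured 14.9, 13.0, 15.7, 12.9 and 14.7 FPKM in WT and 14.5, 9.82, 12.4 and 13.1 FPKM in ERβKO ovaries. ERβKO replicates 2 and 3 lay below every WT ovary, and replicates 1 and 4 lay within the WT range. The log2 fold change was -0.21 (SE 0.12, 95% interval -0.47 to 0.05), with an adjusted p of 0.352 in edgeR and 0.368 in DESeq2.

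Pdgfra, the alpha receptor, is on chromosome 5 (75152292 to 75198215, plus strand). Its WT values ran widely, at 31.3, 23.9, 35.8, 20.1 and 17.8 FPKM, while its ERβKO values were 23.8, 25.2, 25.2 and 28.2 FPKM. All 4 ERβKO ovaries lay inside the WT range, and the coefficient of variation was 29.5% in WT against 7.08% in ERβKO; this difference in spread was not tested. The means were 25.8 ± 7.6 (SD, n = 5) and 25.6 ± 1.8 FPKM (SD, n = 4). The log2 fold change was -0.02 (SE 0.19, 95% interval -0.44 to 0.39), with an adjusted p of 0.962.

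Pdgfrb, the beta receptor and a marker of pericytes, is on chromosome 18 (61045150 to 61085061, plus strand), and no other annotated gene overlaps its exons. It measured 17.9, 13.0, 12.1, 11.3 and 12.9 FPKM in the WT ovaries, in order of replicate, and 10.7, 7.90, 8.12 and 9.43 FPKM in the ERβKO ovaries. Every ERβKO ovary lay below every WT ovary, an arrangement that 3.31% of the genes tested shared. It was the only 1 of the 6 genes whose genotypes did not overlap.
The means were 13.4 ± 2.6 (SD, n = 5) and 9.03 ± 1.3 FPKM (SD, n = 4). The log2 fold change was -0.59 (SE 0.13, 95% interval -0.88 to -0.30), or 0.663 times the WT level (interval 0.542 to 0.811). The unadjusted p was 0.00102, and the adjusted p of 0.0503 in edgeR missed the threshold narrowly. DESeq2 gave a log2 fold change of -0.60 with an adjusted p of 0.00153.

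Over 19 alternative analyses of Pdgfrb the log2 fold change stayed between -0.66 and -0.48 and the adjusted p ran from 0.00153 to 0.159, under 0.05 in 7. Leaving out WT replicate 2 gave an adjusted p of 0.0381 in edgeR and leaving out ERβKO replicate 2 gave 0.159. The highest WT value was that of replicate 1, without which the log2 fold change was -0.48 and the adjusted p 0.0616 in edgeR. The size of the difference thus varied little between analyses, while its adjusted p lay on either side of the threshold. In whole ovaries, fewer cells of a type and less RNA per cell cannot be told apart.

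**Figure D2:**
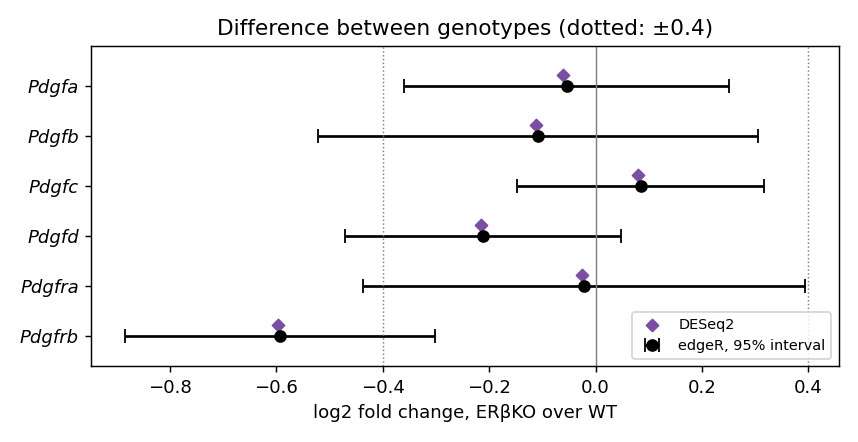
Log2 fold change, ERβKO over WT (x axis), of each PDGF gene, with the 95% interval from edgeR (black) and the DESeq2 estimate (purple); dotted lines mark an absolute log2 fold change of 0.4. The interval excludes 0 for Pdgfrb, at -0.88 to -0.30, and includes 0 for the other genes.

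**Figure D3:**
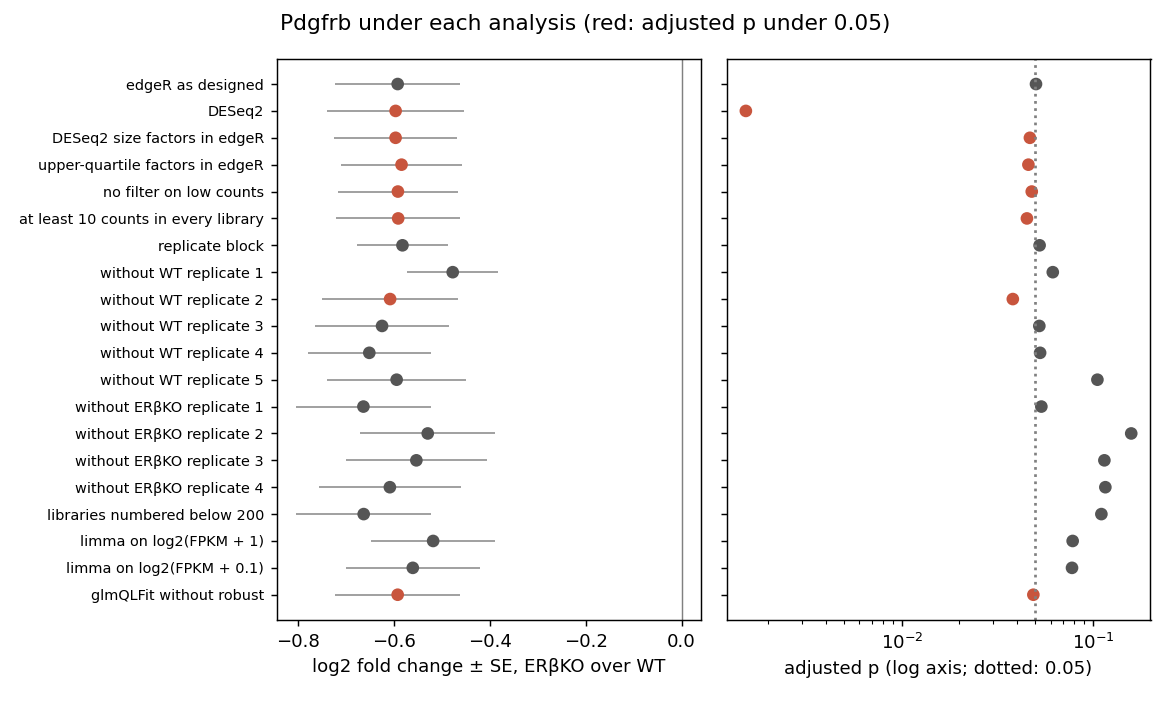
Log2 fold change of Pdgfrb ± SE (left) and its adjusted p on a log axis (right) in the edgeR fit and in 19 alternative analyses, with those under 0.05 in red. The fold changes lie between -0.66 and -0.48, and the adjusted p values lie on both sides of the dotted line at 0.05.

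The balance of transcripts within an ovary was described next, with no test. Pdgfd made up 43.5% ± 4.0 of the summed ligand FPKM in WT ovaries and 39.5% ± 3.5 in ERβKO ovaries (SD, n = 5 and 4), and Pdgfc made up 23.1% ± 2.9 and 26.8% ± 1.6. Pdgfa made up 20.7% in WT and 21.4% in ERβKO ovaries, and Pdgfb 12.7% and 12.3%. The genotypes overlapped in each of these shares and in the ligand sum, which was 32.8 ± 2.1 FPKM in WT ovaries and 31.4 ± 3.0 in ERβKO ovaries.
On the receptor side, Pdgfra took 63.6%, 64.9%, 74.7%, 63.9% and 57.9% of the summed receptor FPKM in WT ovaries and 69.1%, 76.2%, 75.7% and 74.9% in ERβKO ovaries. WT replicate 3, with the highest Pdgfra level, was the only WT ovary within the ERβKO range. The mean share was 65.0% ± 6.1 in WT and 74.0% ± 3.3 in ERβKO, 8.93 percentage points higher. The level of this share depended on the measure, being 40.3% and 50.6% by coverage per base and 52.9% and 63.1% by counts per kilobase of merged exons. The ratio of Pdgfrb to Pdgfb FPKM, the receptor and the ligand of pericyte recruitment, was 3.31 ± 0.76 in WT and 2.40 ± 0.50 in ERβKO ovaries, with overlapping values. Receptor FPKM summed to 39.2 ± 8.9 in WT and 34.7 ± 2.0 in ERβKO ovaries.

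**Figure D4:**
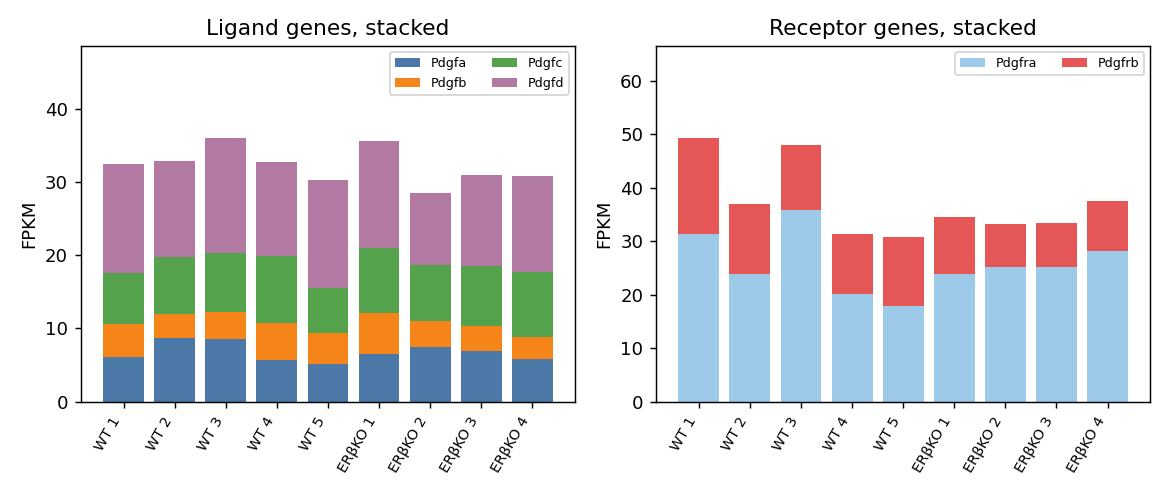
FPKM of the ligand genes (left) and receptor genes (right), stacked for each of the 9 ovaries on axes from 0. Pdgfd is the largest ligand part and Pdgfra the larger receptor part in every ovary, and the Pdgfrb part ranges from 7.90 FPKM in ERβKO replicate 2 to 17.9 FPKM in WT replicate 1.

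Within genotypes the 6 genes did not vary as 1 group. Across 15 pairs, the Pearson r of log2 CPM (counts scaled to library size), taken as deviations from each genotype's mean over the 9 ovaries, ran from -0.523 for Pdgfa with Pdgfb to 0.647 for Pdgfd with Pdgfrb. Spearman's rho was -0.567 and 0.617 for these pairs. Without the 2 ovaries farthest from the median, r of these pairs was -0.240 and 0.517, and other pairs stood at the ends, with 0.736 for Pdgfra with Pdgfrb (0.243 over all 9 ovaries) and -0.655 for Pdgfb with Pdgfc (0.0392). The values thus depended on which ovaries were included. Among the other pairs of ligand and receptor named above, r was 0.417 for Pdgfa with Pdgfra and 0.174 for Pdgfc with Pdgfra. It was 0.237 for Pdgfb with Pdgfrb and -0.394 for Pdgfb with Pdgfra. The points share libraries and depth, and the values are descriptions.

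The genes whose pattern was most like that of each PDGF gene were found among 12220 genes by the same measure. For Pdgfa these were Tmem173 (r = 0.977), which encodes the innate immune adaptor STING, Tlr1 (r = 0.975), a Toll-like receptor, and Cd53 (r = 0.970), a leukocyte tetraspanin. For Pdgfb they were Amy1 (r = 0.990), an amylase, Art3 (r = 0.968) and Atoh8 (r = 0.952), a transcription factor. For Pdgfc they were Sco1 (r = 0.938), a mitochondrial copper chaperone, Setd3 (r = 0.925), an actin methyltransferase, and Mast4 (r = 0.907), a kinase. Mast4 was itself higher in ERβKO ovaries, with a log2 fold change of 0.74 and an adjusted p of 0.00781 in edgeR. It was called in 17 of 19 alternatives, and not with limma at pseudocounts of 1 and 0.1 (adjusted p = 0.0729 and 0.0751 in limma).
For Pdgfd they were Mpst (r = 0.960), a sulfurtransferase, Zscan29 (r = 0.959), a zinc finger gene, and Rpl27a (r = 0.951), a ribosomal protein gene. For Pdgfra they were Oplah (r = 0.961), the enzyme 5-oxoprolinase, Tfpi (r = 0.956), an inhibitor of coagulation, and Amhr2 (r = 0.950), the receptor of anti-Müllerian hormone. For Pdgfrb they were Zbtb37 (r = 0.943), a zinc finger gene, Acyp1 (r = 0.938), an acylphosphatase, and Grk6 (r = 0.935), a kinase of G protein-coupled receptors. The Spearman rho of these 18 genes lay between 0.833 and 1.00. These are the highest of 12220 values on 9 points, and they are given as a description.

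The other genes of the PDGF pathway were taken from lists in the order of signalling. Of 12 genes that process or bind the ligands, 1 met the DEG criteria, Sparc, and it was lower, against 0.753% of all genes lower. Sparc encodes a matrix protein known to bind PDGF-B. It measured 421, 375, 520, 366 and 434 FPKM in WT and 297, 267, 329 and 273 FPKM in ERβKO ovaries, without overlap. Sparc fell, with a log2 fold change of -0.56 (SE 0.12), an adjusted p of 0.0426 in edgeR and 0.000921 in DESeq2. It was called in 13 of 19 alternatives. Leaving out WT replicate 1 or 5 or ERβKO replicate 1, 2 or 4 lost the call, with adjusted p from 0.0788 to 0.141 in edgeR. The call was also lost with the libraries numbered below 200 (adjusted p = 0.126 in edgeR), which leave out WT replicates 4 and 5.
The proteases showed smaller values that missed the threshold. Furin, which cuts PDGF-A and PDGF-B, had a log2 fold change of -0.14 (adjusted p = 0.287 in edgeR). Plat, the tissue plasminogen activator that cleaves PDGF-C, had -0.18 (adjusted p = 0.690 in edgeR), and Plau, the urokinase that cleaves PDGF-D, had -0.25 (adjusted p = 0.422 in edgeR). The other proteases of the list, Pcsk5, Pcsk7, Pcsk6 and St14, had -0.45, -0.11, 0.03 and 0.11. The median of the list was -0.12. At an unadjusted p under 0.05 in edgeR stood 2 of its genes, Sparc and Lrp1 (log2 fold change 0.32), against 19.6% of all genes.

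Over all genes, 19.6% had an unadjusted p under 0.05 in edgeR and 2.91% were DEGs in DESeq2. Downstream of the receptors, 0 of 23 adaptor and effector genes were DEGs in edgeR or DESeq2, with a median of -0.01. At an unadjusted p under 0.05 stood 2 of these 23, Yes1 and Grb2. Among 12 negative regulators, such as phosphatases and ubiquitin ligases, 0 were DEGs with either tool, 1 had an unadjusted p under 0.05, Acp1, and the median was 0.03. Of 17 tested genes that respond to growth factors, 0 were DEGs with either tool, 2 had an unadjusted p under 0.05, Fosb and Plaur, and 12 lay below 0 with a median of -0.33 (range -0.83 to 0.50). Has2, the remaining gene of that list, did not pass the filter. These genes varied among WT ovaries too, as in Egr1, an immediate early transcription factor with 13.8 ± 12 FPKM in WT ovaries and 10.5 ± 1.9 in ERβKO ovaries.
Among 12 genes of related receptors and ligands, 0 were DEGs in edgeR, 3 had an unadjusted p under 0.05, and 1, Kitl, was a DEG in DESeq2. The shares of all genes beside these counts were 1.66%, 19.6% and 2.91%. Kitl, the ligand of KIT that granulosa cells make, had a log2 fold change of 0.79, with an adjusted p of 0.0550 in edgeR and 0.00149 in DESeq2. Kit, a receptor of the same structural class as the PDGF receptors, had 0.71 (adjusted p = 0.163 in edgeR), and Csf1 had 0.48 (adjusted p = 0.172 in edgeR).

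**Figure D5:**
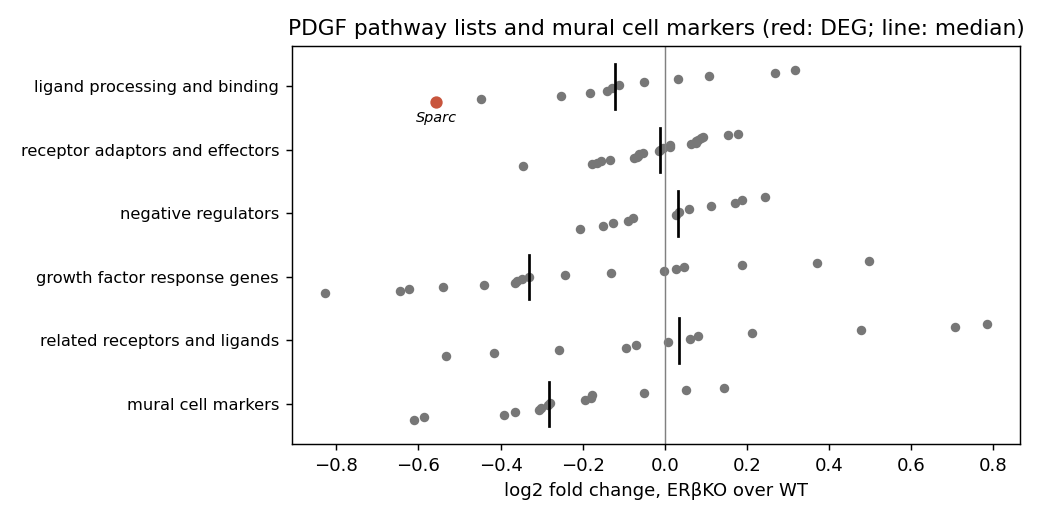
Log2 fold change, ERβKO over WT (x axis), of each tested gene of 5 PDGF pathway lists and of the mural cell markers (rows), with the median of each list as a black line and DEGs in red. Sparc, at -0.56, is the only DEG, and the medians of the growth factor response genes and the mural cell markers lie lowest, at -0.33 and -0.28.

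Most markers of vessel wall cells had log2 fold changes below 0, as Pdgfrb did. Of 14 mural cell markers, 12 had a log2 fold change below 0 (median -0.28). Of the 14, 0 were DEGs in edgeR, 5 had an unadjusted p under 0.05 and 1, Rgs5, was a DEG in DESeq2. Over all genes, 19.6% had an unadjusted p under 0.05 in edgeR and 2.91% were DEGs in DESeq2. Rgs5, a pericyte marker, measured 24.5, 16.1, 23.8, 24.4 and 23.7 FPKM in WT and 18.2, 15.4, 13.8 and 13.7 FPKM in ERβKO ovaries. WT replicate 2 lay within the ERβKO range and the other WT ovaries above it. Its log2 fold change was -0.59, with an adjusted p of 0.0568 in edgeR and 0.00205 in DESeq2. The other defining markers were closer to 0, with -0.28 for Cspg4 (adjusted p = 0.348 in edgeR) and -0.05 for Kcnj8 (adjusted p = 0.876 in edgeR).
The summed mural markers, which smooth muscle genes dominate, were 676 to 1110 FPKM in WT and 684 to 796 FPKM in ERβKO ovaries. Endothelial markers, from the cells that make PDGF-B, were below 0 in 10 of 10 genes with a median of -0.10 and 0 DEGs with either tool, 1 at an unadjusted p under 0.05, and summed to 125 to 154 FPKM in WT and 118 to 140 FPKM in ERβKO ovaries. The defining markers Pecam1, Cdh5 and Kdr had -0.06, -0.17 and -0.23. Each defining marker of both lists was expressed above 0 FPKM in every ovary. The part of these cells in the Pdgfrb values was not tested.

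Beside Pdgfra, markers of the cells known to carry the alpha receptor were read. Of 10 stromal fibroblast markers, 6 lay above 0, with a median of 0.04. Of the 10, 0 were DEGs in edgeR, 3 had an unadjusted p under 0.05 and 1 was a DEG in DESeq2. The shares of all genes beside these counts were 1.66%, 19.6% and 2.91%. The markers summed to 775 to 1290 FPKM in WT and 1037 to 1102 FPKM in ERβKO ovaries. Dcn, Lum and Col1a1 had log2 fold changes of 0.32, 0.02 and -0.16. The WT ovaries had the wider range in the summed stromal markers, as in Pdgfra. This was not particular to the stromal list, since the mural, endothelial and both epithelial sums also ranged more widely in WT. The theca, granulosa and adipocyte sums ranged more widely in ERβKO ovaries.
Of 6 tested theca markers, 1 was a DEG and higher, Aldh1a1, a retinal dehydrogenase, against 0.903% of all genes higher. Its log2 fold change was 1.05 with an adjusted p of 0.0164 in edgeR, and its call was lost without ERβKO replicate 2 (adjusted p = 0.0568) or 4 (0.0540), with the libraries numbered below 200 (0.0976) and with the replicate number as a block (0.125). Cyp17a1, the androgen-producing enzyme of theca cells, had 2.35 (adjusted p = 0.234 in edgeR), and Insl3 did not pass the filter. The theca sum, which Aldh1a1 dominates, was 468 to 731 FPKM in WT and 839 to 1720 FPKM in ERβKO ovaries. The other tested theca markers, Fbln5, Ptch1, Gli1 and Hhip, had log2 fold changes of 0.21, 0.03, 0.12 and -0.06. The part of these cells in the Pdgfra values was not tested.

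Markers of other cells in the ovary varied between the libraries. Their counts stand beside 19.6% of all genes at an unadjusted p under 0.05 in edgeR and 2.91% called in DESeq2. Granulosa markers lay above 0 in 10 of 10 genes (median 0.53; sum 578 to 692 FPKM in WT and 749 to 1023 FPKM in ERβKO), with Foxl2, Fshr and Amh at 0.29, 1.06 and 0.32. Of these, 1 was a DEG and higher in edgeR, against 0.903% of all genes higher, 4 had an unadjusted p under 0.05 and 4 were DEGs in DESeq2. The edgeR call, Hsd17b1 (log2 fold change 0.77, adjusted p = 0.0426 in edgeR), stayed a DEG when WT replicate 2 or 3 was left out and not when any of the other libraries was, with an adjusted p of up to 0.113 in edgeR. It was called in 9 of 19 alternatives in all, with an adjusted p of up to 0.150 in edgeR. Luteal markers lay below 0 in 9 of 10 genes (median -0.86; sum 1614 to 3276 FPKM in WT and 941 to 2393 FPKM in ERβKO), with 0 DEGs in edgeR, 4 at an unadjusted p under 0.05 and 3 in DESeq2, and Lhcgr, Ptgfr and Prlr at -0.26, -1.28 and -0.97. Adipocyte markers lay above 0 in 8 of 8 genes (median 1.28; sum 149 to 274 FPKM in WT and 164 to 1056 FPKM in ERβKO), with 0 DEGs in edgeR, 6 at an unadjusted p under 0.05 and 3 in DESeq2, and Adipoq, Plin1 and Lep at 1.36, 1.20 and 2.17.
Macrophage markers had a median of 0.04 and summed to 201.7 to 373 FPKM in WT and 243 to 398 FPKM in ERβKO, with 0 of 8 genes at an unadjusted p under 0.05, 0 DEGs in edgeR or DESeq2, and Adgre1, Cd68 and Csf1r at 0.06, 0.01 and 0.08. Of the platelet and megakaryocyte markers, cells rich in PDGF protein, 3 of 6 passed the filter, with a median of -0.18 and sums of 4.14 to 7.85 FPKM in WT and 4.90 to 7.72 FPKM in ERβKO, and Pf4, Itga2b and Gp1bb had -0.18, 0.13 and -0.46. Oocyte markers had a median of 0.42 over 9 tested genes and summed to 41.0 to 128 FPKM in WT and 87.9 to 164 FPKM in ERβKO, with Zp1, Zp2 and Zp3 at 0.32, 0.44 and 0.48. Surface epithelium markers had a median of 0.17 over 7 genes, with Krt7, Krt8 and Krt18 at 0.54, 0.14 and 0.09. They summed to 166 to 271 FPKM in WT and 231 to 271 FPKM in ERβKO. Oviduct epithelium markers had a median of 0.40 over 6 genes, with Ovgp1, Foxj1 and Sox17 at -0.12, 0.54 and -0.15. Their sum, which Ovgp1 dominates, was 1335 to 2432 FPKM in WT and 1548 to 1985 FPKM in ERβKO. The platelet, oocyte and both epithelial lists held 0 DEGs in edgeR or DESeq2. They held 0, 0, 1 and 3 genes at an unadjusted p under 0.05, against 19.6% of all genes. The part of these cells in the PDGF values was not tested.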

How the data were processed

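Ovary RNA of 5 WT and 4 ERβKO mice was sequenced, and the replicates are separate animals. Per the study's methods, the authors made stranded poly(A) libraries, which were sequenced as pairs of 150 bp reads and aligned to GRCm38 by STAR. The deposited counts are the authors' raw fragment counts per gene from featureCounts, with no normalization, and whether counting used the strand is not given in the sources used here. The deposited FPKM and TPM values and the deposited coverage (a signal, mean coverage per base, not scaled for depth) come from StringTie, run by the authors, and the latter pair served only as alternatives. Per the labels, base calls were converted with bcl2fastq 2.20.0.422 and the build is mm10.

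The counts were fitted in R 4.3.3 with edgeR 4.0.16 (filterByExpr, TMM, glmQLFit with its robust option), genotype as the factor, over 16722 of 46078 genes, with Benjamini-Hochberg adjustment over all of them. The common biological coefficient of variation was 0.179. SEs of log2 fold changes were derived from the F statistic. DESeq2 1.42.0 (the study's tool), limma 3.58.1 on log2(FPKM + 1) or log2(FPKM + 0.1), other scalings and filters and libraries left out were alternatives, and the fit without the robust option and the counts per kilobase of merged GENCODE M21 exons were added after the data were seen, as was the order of levels by coverage. The tests were tried on simulated counts. Gene coordinates are those deposited with the FPKM values (GRCm38). They equal GENCODE M21 for Pdgfa, Pdgfc, Pdgfra and Pdgfrb and differ from it for Pdgfb and Pdgfd. Exon lengths and overlaps are those of GENCODE M21, and sequences those of RefSeq.

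The 6 genes and all lists were chosen with earlier results of these data known. Genes named are the 6, list genes that met the DEG criteria, the 3 genes most like each PDGF gene (mean CPM of at least 5, log2 CPM with a prior count of 2), the first 3 genes of each marker list and Esr2. Furin, Plat, Plau, Egr1, Kit, Kitl, Csf1, Has2, Yes1, Grb2, Acp1, Fosb and Plaur were named outside this rule, after their values were seen. So were Pcsk5, Pcsk6, Pcsk7, St14, Lrp1, Fbln5, Ptch1, Gli1 and Hhip. Replicate numbers were not taken as pairs in the main fit. Protein sequences were not used here.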

Additional observations from a re-analysis of the deposited data

Results flagged for a closer look

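Among 34 comparisons of the extreme ovary with the others of its genotype by Dixon's test, 2 stood apart beyond the 95% critical value, and chance flags about 1 group in 20. Pdgfb in ERβKO replicate 1 measured 5.62 FPKM, above the 3.06 to 3.49 FPKM of the other 3 ERβKO ovaries, with a gap of 0.831 of the range against a critical value of 0.829. Without this ovary the log2 fold change of Pdgfb was -0.32, with an adjusted p of 0.336 in edgeR. The same ovary had the highest sum of adipocyte markers, 1056 FPKM, and the part of this in the Pdgfb value was not tested. Pdgfrb in WT replicate 1 measured 17.9 FPKM, above the 11.3 to 13.0 FPKM of the other 4 WT ovaries, with a gap of 0.752 of the range against a critical value of 0.71. Without it the log2 fold change of Pdgfrb was -0.48 (adjusted p = 0.0616 in edgeR), and the genotypes still did not overlap.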

How the results depend on the processing

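The log2 fold changes of Pdgfc, Pdgfd and Pdgfrb kept their direction in 19 of 19 alternatives each. Pdgfrb passed the threshold with DESeq2 (-0.60, adjusted p = 0.00153), with DESeq2 size factors (-0.60, 0.0468) or upper-quartile factors (-0.58, 0.0459) in edgeR, with no filter on low counts (-0.59, 0.0478), with at least 10 counts in every library (-0.59, 0.0451) and without the robust option (-0.59, 0.0487), and in each of these 1 of the 6 genes was called. Leaving out 1 library moved the log2 fold change of Pdgfrb from -0.66 to -0.48 and called 0 to 1 of the 6 genes, 1 without WT replicate 2. Pdgfra turned to 0.034 and 0.037 with limma at pseudocounts of 1 and 0.1 and ran from -0.12 to 0.14 when 1 library was left out, being above 0 without WT replicate 1 or 3 or ERβKO replicate 1 or 2. Pdgfa ran from -0.11 to 0.037 and was above 0 without WT replicate 2 or ERβKO replicate 4. Pdgfb turned to 0.042 with the libraries numbered below 200, a setting that leaves out WT replicates 4 and 5 and keeps every ERβKO library. In that setting Pdgfra was at -0.24 and Pdgfa at -0.18. DEGs numbered 277, against 805 with DESeq2, 47 with the libraries numbered below 200, and 55 (without ERβKO replicate 2) to 862 (without WT replicate 2) with 1 library left out. The cause of these changes was not tested. The replicate block gave 155 DEGs and a log2 fold change of -0.58 for Pdgfrb (adjusted p = 0.0526 in edgeR). Same-numbered ovaries had deviations that correlated at -0.0427 to 0.130 over all genes, and 0 of 8 libraries correlated best with their own number. For 5 of the 6 PDGF genes, taken singly, the deviations of same-numbered ovaries correlated above 0. Each of these correlations rests on replicates 1 to 4 alone. The share of all genes above 0 was not counted, so no pairing is read from them. The difference between genotypes in the Pdgfra share of receptor FPKM and in the ratio of Pdgfrb to Pdgfb moved by less than 1 SD in every alternative tried, while their levels depended on the measure, with a WT ratio of 3.31 by FPKM, 3.27 by coverage and 4.48 by counts per kilobase of merged exons.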

Other observations

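Within the stromal fibroblast markers, genes of the matrix had mean differences of either sign. Dcn, a small proteoglycan, measured 357 ± 40 FPKM in WT ovaries and 456 ± 34 in ERβKO ovaries (mean ± SD over 5 and 4 ovaries), with an adjusted p of 0.0655 in edgeR. Mfap5, a microfibril protein, measured 7.90 ± 1.6 and 14.0 ± 3.0 FPKM, with an adjusted p of 0.0558 in edgeR and 0.00326 in DESeq2. Col3a1, a fibrillar collagen, measured 140 ± 60 and 99.7 ± 11 FPKM, with an adjusted p of 0.333 in edgeR. Of the mural cell markers, the contractile genes Cnn1 and Des had log2 fold changes of 0.14 and 0.05, and Ndufa4l2, a pericyte marker, had -0.61 (adjusted p = 0.139 in edgeR). Apart from Dcn, these genes were named after their values were seen.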
